A study of Homo sapiens with 3 samples.

Results

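Homologous recombination and the Fanconi anemia pathway repair broken and crosslinked DNA, and 36 of their genes were followed here through CAMA-1 breast cancer spheroids under the CDK4/6 inhibitor ribociclib. The genes were taken by symbol from the 3 count tables, and all 36 were found among 22499 genes with a symbol. They were set by role into the BRCA complex, the strand invasion paralogs, the factors of strand pairing and remodeling, the enzymes of end processing and dissolution, the checkpoint kinases, the Fanconi core complex, the FANCD2 and FANCI pair and the nuclease scaffold SLX4. Each gene was compared between populations of cells within the same cell cycle phase, because spheroids that hold more dividing cells hold more RNA of genes used in DNA replication.

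Homologous recombination copies the lost sequence of a broken chromosome from the sister chromatid, which exists only after replication, and the pathway is therefore used in S and G2 phase. The break is cut back to single strands, a protein filament forms on them with the help of BRCA2, and the filament invades the intact copy. Fanconi proteins detect a crosslink that blocks a replication fork, attach ubiquitin to FANCD2 and FANCI, and pass the lesion on to nucleases and recombination.

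CAMA-1 is an estrogen receptor-positive luminal breast cancer cell line. The sensitive lineage was the parental line labeled with Venus, and the resistant lineage had been selected by long growth in ribociclib and was labeled with mCherry, so lineage and fluorescent label cannot be told apart. Spheroids held 100% sensitive cells, 50% sensitive and 50% resistant cells, or 100% resistant cells, and all were kept with 1 µM ribociclib for 11 days, so there was no untreated group. There was 1 single-cell library per condition, which means that no test across samples could be run. All intervals are 95% and cover the counting error of unique molecular identifiers (UMIs) only.

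The populations are those of the authors' deposited label for each kept cell, which splits the cells of the coculture library into sensitive and resistant. The authors had also given each kept cell a phase from its S and G2M scores. Sensitive monoculture cells numbered 2963 in G1, 176 in S and 190 in G2M. Sensitive coculture cells numbered 1138, 458 and 463, resistant coculture cells 3125, 1627 and 1540, and resistant monoculture cells 3781, 2162 and 1614. The summed UMIs of these 12 groups ranged from 6614344 in S phase of the sensitive monoculture to 128692897 in G1 of the resistant monoculture, and levels are given as counts of a gene per 1000000 UMIs (CPM) of a group. Between 7 and 17 barcodes of kept cells were shared by a pair of libraries. In the populations as wholes, KRT18 (2646 to 3579 CPM), KRT8, KRT19, GATA3, EPCAM, FOXA1 and ESR1 (14.2 to 20.2 CPM) marked luminal cells, whereas PTPRC and KRT5 had at most 2 UMIs per population, COL1A2 at most 5, and COL1A1, VIM and KRT14 stayed at or below 3.61 CPM. mCherry had 0 UMIs in all kept sensitive cells and mVenus 0 UMIs in all kept resistant cells. The study marked the lineages with these transgenes, so the zeros are no independent check of the lineage label. It states that cells with 2 or more UMIs of either transgene were kept. In the coculture library 614 barcodes held both transgenes. Of the kept coculture cells, 1127 of 2059 sensitive and 3932 of 6292 resistant cells had at least 2 UMIs of their own transgene. In the deposited counts the other kept cells thus lie under the stated filter.

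To show regulatory sequence beside the highest and the flattest ratios of S over G1, promoter windows of 5 members are printed, from 250 bases before to 50 bases after the RefSeq start of the gene (GRCh38.p14, coding strand). EXO1 (chr1:241847954-241848253, plus strand), BRIP1 (chr17:61863479-61863778, minus strand) and RAD54L (chr1:46247438-46247737, plus strand) had the largest ratio of S over G1 in resistant monoculture cells. However, EXO1 and BRIP1 are in the gene list taken to set S phase. RAD52 (chr12:949645-949944, minus strand) and ATR (chr3:142578684-142578983, minus strand) had the ratio closest to 1. Capitals mark matches on either strand to 3 kinds of short motif, namely E2F words (TTTCCCGC, TTTCGCGC, TTTGCCGC or TTTGGCGC), the cell cycle homology region (TTTGAA) and the CCAAT box (CCAAT). Where a gene has several starts the first listed is shown.
EXO1: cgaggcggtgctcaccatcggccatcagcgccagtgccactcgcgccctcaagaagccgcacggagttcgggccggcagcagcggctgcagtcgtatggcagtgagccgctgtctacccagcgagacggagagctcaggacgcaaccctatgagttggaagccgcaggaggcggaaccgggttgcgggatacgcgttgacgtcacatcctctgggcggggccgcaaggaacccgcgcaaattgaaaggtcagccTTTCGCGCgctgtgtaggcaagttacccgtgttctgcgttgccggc
BRIP1: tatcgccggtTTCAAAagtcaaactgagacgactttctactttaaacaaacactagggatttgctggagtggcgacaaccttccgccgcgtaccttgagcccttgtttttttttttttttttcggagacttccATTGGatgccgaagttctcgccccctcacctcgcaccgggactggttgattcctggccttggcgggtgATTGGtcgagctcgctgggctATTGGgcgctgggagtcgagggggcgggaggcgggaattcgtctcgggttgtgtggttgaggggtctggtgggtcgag
RAD54L: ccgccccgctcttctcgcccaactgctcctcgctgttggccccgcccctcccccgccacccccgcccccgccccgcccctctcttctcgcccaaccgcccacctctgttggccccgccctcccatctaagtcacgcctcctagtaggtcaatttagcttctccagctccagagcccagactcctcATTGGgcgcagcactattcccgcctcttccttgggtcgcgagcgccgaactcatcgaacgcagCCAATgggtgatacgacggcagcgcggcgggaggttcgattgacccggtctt
RAD52: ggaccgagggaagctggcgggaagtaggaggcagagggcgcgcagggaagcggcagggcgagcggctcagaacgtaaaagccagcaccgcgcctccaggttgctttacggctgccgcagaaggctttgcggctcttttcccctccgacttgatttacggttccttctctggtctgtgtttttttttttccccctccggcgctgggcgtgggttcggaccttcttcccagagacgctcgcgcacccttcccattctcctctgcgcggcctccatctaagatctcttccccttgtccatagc
ATR: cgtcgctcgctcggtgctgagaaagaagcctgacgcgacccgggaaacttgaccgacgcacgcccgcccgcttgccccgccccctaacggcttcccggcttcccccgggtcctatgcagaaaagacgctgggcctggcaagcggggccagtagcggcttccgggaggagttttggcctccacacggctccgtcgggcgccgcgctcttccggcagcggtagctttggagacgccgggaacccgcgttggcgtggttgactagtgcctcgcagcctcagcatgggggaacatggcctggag

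The EXO1 window held 1 E2F word, TTTCGCGC, starting 4 bases after the start of the gene. The BRIP1 window held 1 homology region and 3 CCAAT boxes, the RAD54L window held 2 CCAAT boxes, and the windows of RAD52 and ATR held no match to any of these words. Over all members, 33 of 36 had a window, and an E2F word was found in at least 1 window of 5 of them (EXO1, FANCA, FANCC, FANCD2 and XRCC2), 15.2%, against 3.99% of 27305 genes. The homology region was found in 4 members (12.1%, against 18.2% of all genes) and a CCAAT box in 15 (45.5%, against 39.7%). Without the 4 members of the S gene list, which EXO1 belongs to, 3 of 18 members with at least 1.5 times the CPM in S than in G1 of resistant monoculture had an E2F word, and 1 of 11 of the rest. A match of letters describes the window and shows neither binding nor regulation.

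The members differed widely in their dependence on phase. In resistant monoculture cells, RAD54L, a motor protein that remodels DNA during strand invasion, stood at 1.11 CPM in G1, 5.92 CPM in S and 3.07 CPM in G2M. BRCA1, which with BARD1 forms a ubiquitin ligase that opens the way to recombination, stood at 14.5, 52.9 and 37.1 CPM. At the other end, RAD50, a subunit of the break sensor it forms with MRE11 and NBN, stood at 134, 139 and 148 CPM, and ATR, the kinase that answers stalled forks, at 10.1, 10.2 and 9.70 CPM. RAD50 and ATR were close to level across the cycle while RAD54L and BRCA1 were several times higher in S than in G1. The study says that phases came from canonical markers and names no list. Phases called here with the gene lists of the Seurat program were the same as the deposited ones for 95.2% of cells. RAD51AP1, EXO1, BLM and BRIP1 are in its S gene list, so their difference between phases is taken as a part of the phase call and no finding. The counts of S or G2M over G1 leave these 4 out except where given by role. Counts between populations within a phase hold all 36 members unless said otherwise.

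Of the other 32 members, 20 passed a ratio of 1.5 in S over G1 in sensitive monoculture (8.96% of all genes measured did so), 21 in sensitive coculture (7.23% of all genes), 21 in resistant coculture (6.49%) and 20 in resistant monoculture (6.82%). A ratio of 1.5 is used here as a fold and not as a test, over genes with at least 50 UMIs in both groups together. None of these members had a ratio under 1/1.5, where 1288 of 11657 genes had it in sensitive monoculture. In sensitive coculture 494 of 11190 genes had it, in resistant coculture 536 of 12143 and in resistant monoculture 570 of 12357. The median log2 ratio of S over G1 was 1.10, 0.97, 0.82 and 0.87 in the same order (1.37, 1.61, 1.17 and 1.19 with a stricter phase call that asks for scores beyond 0.1), against -0.03, 0.01, -0.01 and 0.01 over all genes. In G2M over G1, 16, 20, 16 and 16 members passed 1.5, of 32 measured or of 31 in sensitive coculture, and 11.7%, 7.79%, 8.06% and 8.93% of all genes did. The median log2 ratios were then 0.60, 0.71, 0.55 and 0.59.

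By role, with the genes of the S list counted here, dependence on phase was uneven. In resistant monoculture cells, 4 of 5 genes of the BRCA complex passed 1.5 in S over G1, all except PALB2, the bridge between BRCA1 and BRCA2, which went from 6.67 to 9.45 CPM. All 5 strand invasion paralogs passed it, with a median log2 ratio of 0.71. These proteins help the filament to form on single strands, and RAD51C went from 42.1 to 68.7 CPM and XRCC2 from 6.79 to 14.3 CPM. Of the checkpoint kinases only CHEK1, which acts below ATR, passed it, from 7.59 to 28.9 CPM, whereas ATM went from 10.2 to 10.8 CPM and CHEK2 from 7.62 to 10.4 CPM. In the break sensor, MRE11 went from 8.54 to 10.9 CPM and NBN from 56.1 to 59.4 CPM. In the Fanconi core complex and its E2 enzyme, 6 of 9 passed it, namely FANCA, FANCB, FANCE, FANCG, FANCL and UBE2T, and FANCC, FANCF and FANCM did not. FANCF, an adaptor of the complex, was at 12.5 CPM in G1 and 11.1 CPM in S, the only member with less in S than in G1. FANCD2 and FANCI both passed it, and SLX4, the scaffold for nucleases, did not, with 4.24 and 4.64 CPM.

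Some members were higher in G2M than in S. In all 4 populations RAD51AP1, a gene of the S list which helps the invading strand to pair with its target, FANCI, UBE2T, RAD51C, RAD50 and CHEK2 had their highest level in G2M. RAD50 differed little between phases, and no share of all genes is set beside this list. UBE2T, the E2 enzyme that works with the ligase FANCL on FANCD2 and FANCI, stood at 49.5 CPM in G1, 123 CPM in S and 143 CPM in G2M of resistant monoculture cells. FANCI stood at 9.39, 30.3 and 35.9 CPM. Of the 32 members outside the S list, 19 and 20 had their highest level in S in sensitive cells, alone and cocultured, where 25.3% and 28.3% of all genes with at least 50 UMIs did. In resistant cells, in the same order, it was 19 and 22, where 21.5% and 22.3% of all genes did.

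**Figure D1:**
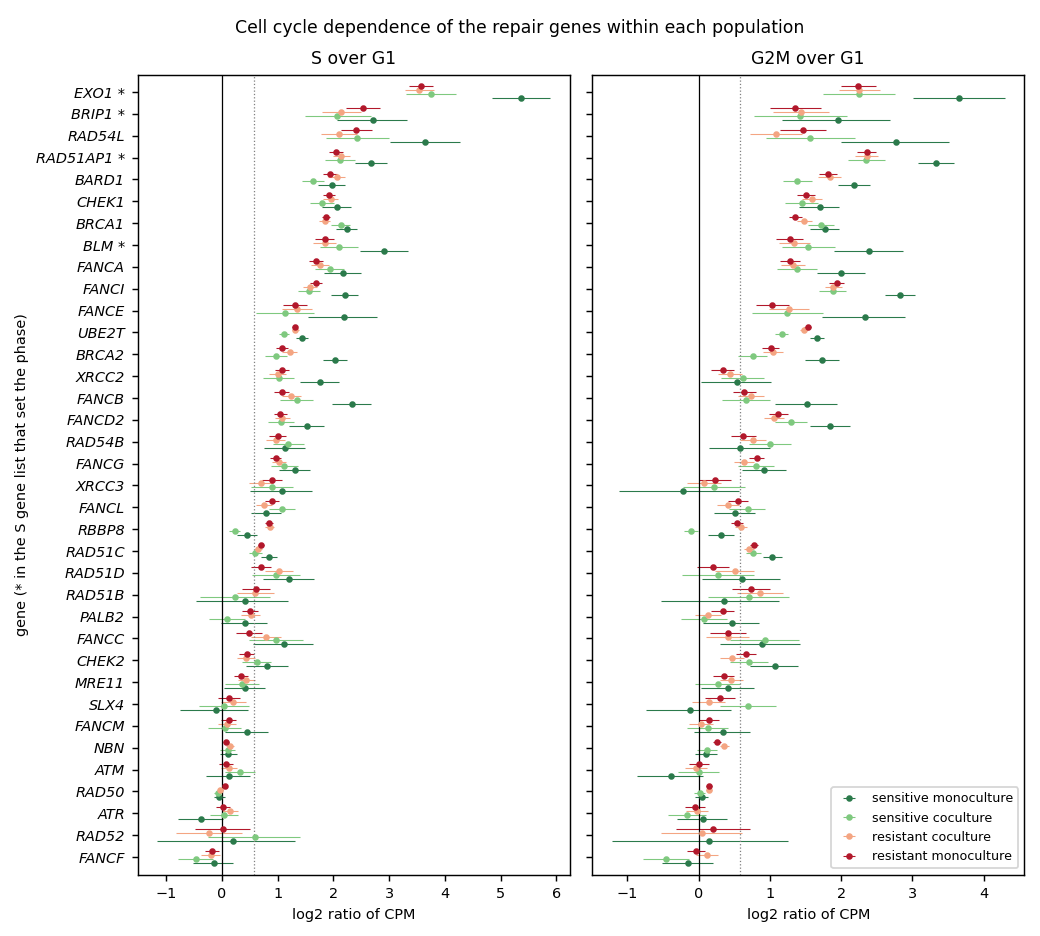
Log2 ratio of CPM in S over G1 (left) and in G2M over G1 (right) for the 36 repair genes, ordered by the S over G1 ratio of resistant monoculture cells. There is 1 point per population, with 95% counting intervals. The dotted line is a ratio of 1.5, and genes with an asterisk are in the S gene list taken to have set the phases. EXO1, BRIP1 and RAD54L stand at the top and RAD52 and FANCF at the bottom, and the sensitive monoculture points lie farthest right in the left panel for 19 of the 32 genes without an asterisk.

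Of the 32 members outside the S list, the ratio of S over G1 was highest in sensitive monoculture for 19, where it was for 33.9% of all genes. The S group of sensitive monoculture was the smallest, with 176 cells, so its levels rest on the fewest UMIs. With the stricter phase call the median log2 ratio of these members was 1.37 there, below 1.61 in sensitive coculture. For RAD54L the log2 ratio was 3.64 in sensitive monoculture and 2.10 to 2.42 in the other populations. RAD54L had only 1668 UMIs over all kept cells, so its level in a single group rests on few. The wider gap lay in G1, where sensitive monoculture cells had 0.532 CPM of RAD54L, against 1.06 to 1.26 CPM in the other populations, while in S they had 6.65 CPM against 5.40 to 5.92 CPM. G1 cells of the sensitive monoculture also had the lowest cycle scores, with a median S score of -0.094 against -0.071 to -0.066 and a median G2M score of -0.165 against -0.0996 to -0.0936.

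**Figure D2:**
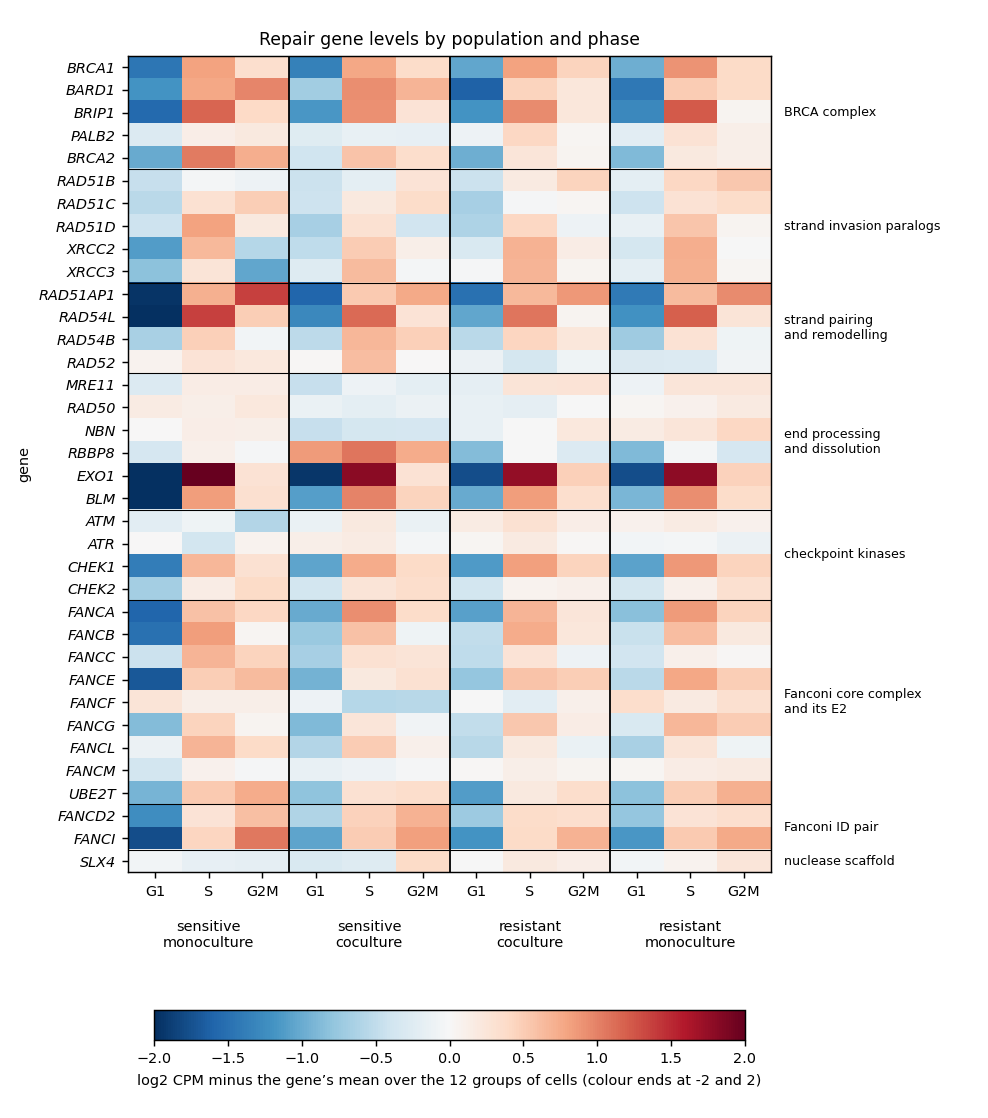
Level of each repair gene (rows, grouped by role) in the 12 groups of cells (columns, 4 populations by 3 phases), as log2 CPM minus the gene's own mean over the groups, from blue (low) to red (high). G1 columns are blue for most of the BRCA, strand pairing and Fanconi genes in every population, while RBBP8 is red in the 3 sensitive coculture columns.

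Taking all phases together, cocultured sensitive cells had more repair RNA than sensitive cells alone. The 36 members summed to 530 CPM (525 to 535) in sensitive cells alone and 652 CPM (646 to 658) in those of the coculture, and in resistant cells to 683 CPM (680 to 686) alone and 618 CPM (615 to 621) in coculture. In coculture over monoculture of sensitive cells, 18 of 36 members passed 1.5, where 8.6% of all genes did, and the median log2 ratio was 0.54. In resistant over sensitive monoculture, 17 passed it, where 11.5% of all genes did, and the median was 0.48. Sensitive monoculture cells were 89.0% in G1, against 55.3% of sensitive coculture, 49.7% of resistant coculture and 50.0% of resistant monoculture cells.

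When the CPM of the 3 phases were averaged with the phase shares of resistant monoculture cells as weights in every population, both medians came close to 0. For sensitive cells, coculture over monoculture, the median log2 ratio was then 0.01 (-0.08 over all genes). The only member past 1.5 was RBBP8, and 5.3% of all genes were past it. For resistant over sensitive monoculture the median was 0.06 (-0.11 over all genes), and the only member past 1.5 was XRCC3, where 8.67% of all genes were. BRCA1 is an example, with a log2 ratio of 0.81 over all sensitive cells and 0.02 at equal phase shares. RBBP8 stayed past the fold, with 1.16 and 1.03. Other members also changed little, among them FANCF (-0.55 and -0.51), NBN (-0.43 and -0.47) and RAD50 (-0.31 and -0.31). XRCC3 kept a part of its ratio (0.79 and 0.56).

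**Figure D3:**
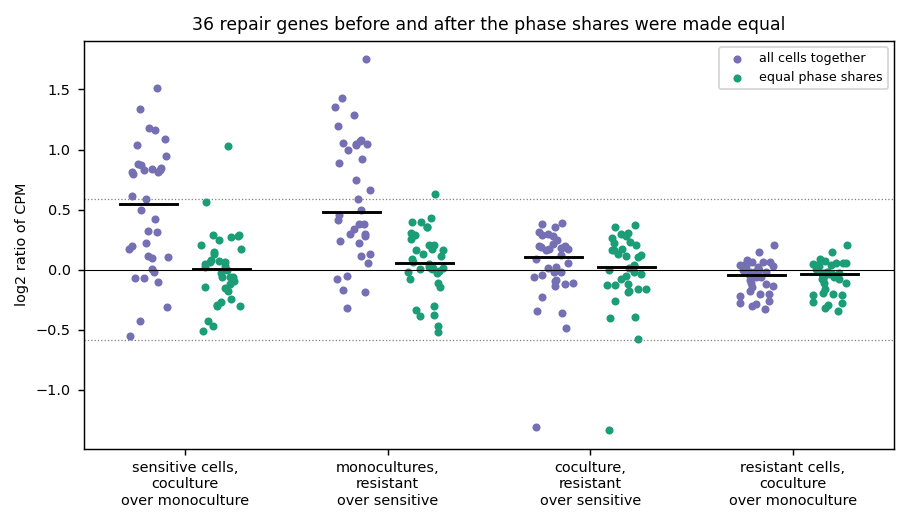
Log2 ratio of CPM of the 36 repair genes in 4 comparisons of populations, over all cells together (purple) and with the same phase shares given to every population (green); black bars are medians and dotted lines are ratios of 1.5 and 1/1.5. The purple medians of the first 2 comparisons lie at 0.54 and 0.48 and the green medians at 0.01 and 0.06.

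Within G1, sensitive cells of the coculture were compared with sensitive cells of the monoculture. The summed members stood at 508 CPM (500 to 515) in coculture and 474 CPM (469 to 479) in monoculture. Without RBBP8 the other 35 members stood at 431 CPM (425 to 438) and 441 CPM (436 to 445), so the sum was not higher without RBBP8. That sum weighs abundant members most, and RAD50 and NBN were lower in coculture. From monoculture to coculture, the BRCA complex went from 33.2 to 41.6 CPM and FANCD2 with FANCI from 11.7 to 18.8 CPM. Paralogs went from 49.8 to 56.1 CPM, checkpoint kinases from 31.0 to 35.3 CPM and strand pairing from 10.2 to 12.1 CPM. Within each pair the intervals did not overlap. Those of the Fanconi core (higher) and SLX4 (lower) overlapped, and the remaining role holds RBBP8. Of 36 members, 10 were past 1.5 higher, where 6.66% of all genes were, and 0 were past it lower, where 8.42% of all genes were. The median log2 ratio was 0.17, against -0.08 over all genes. The 10 were EXO1, RBBP8, RAD54L, BLM, FANCE, FANCB, FANCI, FANCD2, XRCC2 and BRCA2, and 8 of them lie outside the S gene list. FANCA (1.496) and XRCC3 (1.48) lay just under the fold. FANCI, the partner of FANCD2 in the clamp that receives ubiquitin, had 6.21 CPM in monoculture and 10.2 CPM in coculture, a ratio of 1.64 (1.43 to 1.87). FANCD2 had 5.49 and 8.63 CPM, a ratio of 1.57 (1.36 to 1.82). FANCB and FANCE, both of the Fanconi core complex, had ratios of 1.67 (1.36 to 2.04) and 1.68 (1.20 to 2.34). With the stricter phase call, which left 184 coculture cells in G1, the log2 ratio of FANCB was -0.46, that of BRCA2 -0.34 and the median of the members -0.16. The BLM helicase, which takes joined DNA molecules apart, had 1.49 and 2.93 CPM and the RAD54L motor 0.532 and 1.06 CPM. Both levels of RAD54L are low and rest on few UMIs. BRCA2, a central mediator of strand invasion, had 8.34 and 12.6 CPM, a ratio of 1.51 (1.34 to 1.70). EXO1, the nuclease that cuts DNA ends back over long distances, had 0.508 and 1.36 CPM, and its ratio of 2.67 (1.74 to 4.13) rests on 42 UMIs in monoculture and 50 in coculture.

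At the lower end in G1 were NBN, the regulatory subunit of the break sensor, at 50.5 CPM in monoculture and 36.5 CPM in coculture, FANCL, the ubiquitin ligase of the Fanconi core, at 11.5 and 8.33 CPM, and FANCF at 11.7 and 9.06 CPM. Their ratios were 0.724 (0.680 to 0.770), 0.726 (0.636 to 0.826) and 0.774 (0.682 to 0.878). BRCA1 had 10.5 and 11.2 CPM and PALB2 6.38 and 6.54 CPM, so the genes of the BRCA complex differed among themselves.

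The G1 cells of the 2 populations differed in cycle scores, in median UMIs per cell (26713 in monoculture and 31964 in coculture) and in mitochondrial share (a median of 21.2% and 19.2%). When cells were also matched on S and G2M scores made without the members, over 1119 coculture and 2683 monoculture cells, the median log2 ratio of the members in G1 was -0.06, against -0.06 over all genes. The only member past 1.5 higher was then RBBP8, where 5.58% of all genes were. The log2 ratio of FANCI went from 0.71 to 0.08, that of EXO1 from 1.42 to 0.21 and that of FANCD2 from 0.65 to 0.15, and FANCB went from 0.74 to -0.08, BRCA2 from 0.60 to -0.32 and BRCA1 from 0.09 to -0.45. NBN (-0.47 and -0.51), FANCL (-0.46 and -0.49), FANCF (-0.37 and -0.28) and RBBP8 (1.19 and 1.08) lay on the same side in both. The part of depth and mitochondrial share in these values was not tested.

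Within S and G2M, few members passed 1.5 between the sensitive populations. The summed members were lower in coculture in both phases. In S they stood at 839 CPM (825 to 853) in coculture and 875 CPM (853 to 898) in monoculture. In G2M they stood at 778 CPM (765 to 791) and 868 CPM (846 to 890). In S, 35 members had enough UMIs, RAD52 being the other. RBBP8 was past it higher, where 4.81% of all genes were, and FANCF lower, where 5.44% were, and the median log2 ratio was -0.17 (-0.06 over all genes). After RBBP8 (0.97) the highest were ATR (0.52) and XRCC3 (0.38), and above FANCF (-0.69) the lowest were RAD51D (-0.49) and NBN (-0.47). In G2M, XRCC3, RBBP8 and XRCC2 were past 1.5 higher, where 4.5% of all genes were, and FANCF and RAD51AP1 lower, where 5.95% were. The median log2 ratio in G2M was -0.13 (-0.08 over all genes). RAD51AP1 had 36.1 CPM in monoculture and 23.5 CPM in coculture, a ratio of 0.653 (0.556 to 0.768), and RAD51D, another of the paralogs, came next with 4.78 and 3.19 CPM. XRCC3, the paralog that pairs with RAD51C, had 2.03 and 4.07 CPM in G2M, a ratio of 2.01 (1.12 to 3.86) from 14 UMIs in monoculture. With matched cycle scores, RBBP8 (1.03) was past the fold higher in S (6.89% of all genes) and RAD51D (-0.69) and FANCF (-0.61) lower (8% of all genes). In G2M the matched calls were RBBP8 (0.90), RAD54B (0.76) and XRCC3 (0.64) higher (5.22% of all genes) and RAD51D (-0.996), FANCF (-0.79) and PALB2 (-0.63) lower (9% of all genes), so XRCC2 (0.48) and RAD51AP1 (-0.43) were no longer past it. The monoculture side of these values holds only 176 and 190 cells, and 117 and 123 where scores were matched.

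**Figure D4:**
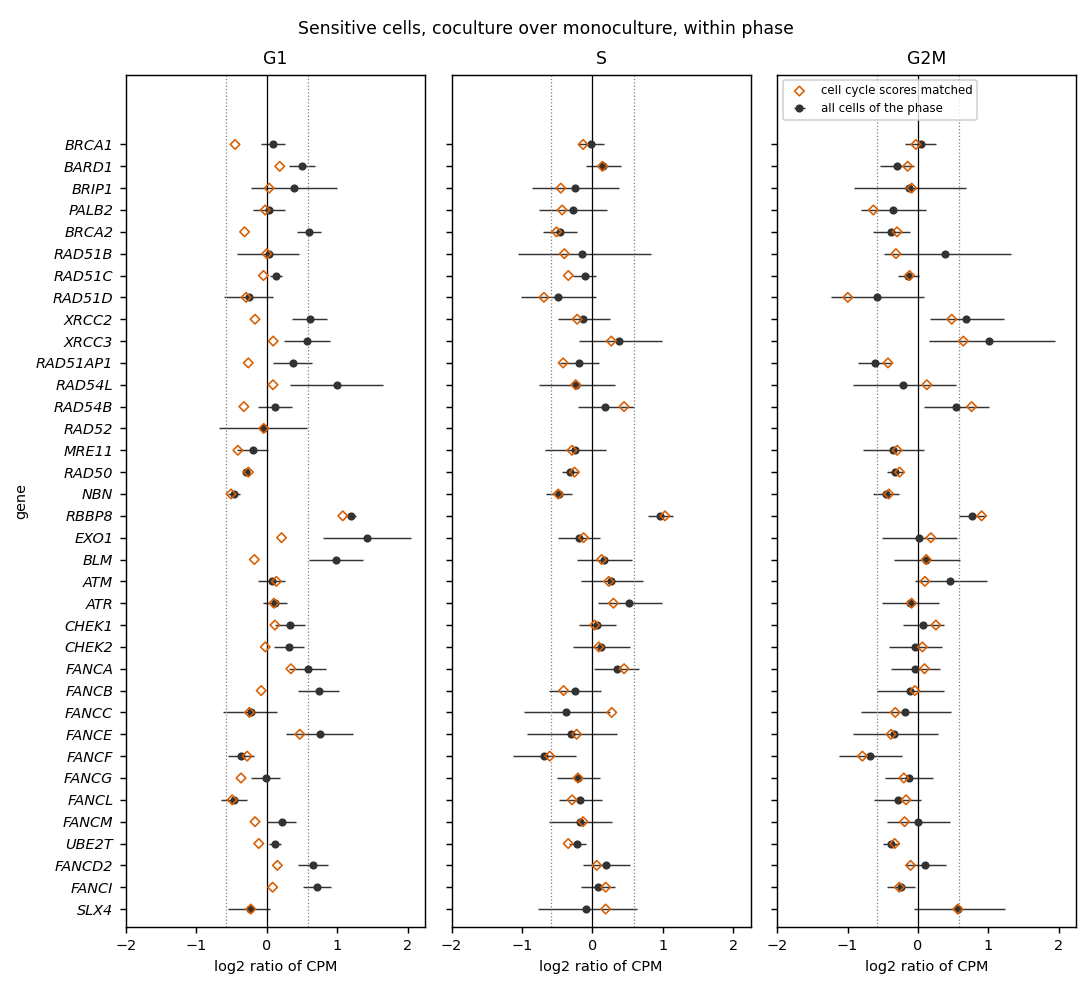
Log2 ratio of CPM, coculture over monoculture, in sensitive cells of each phase for the repair genes with at least 50 UMIs (black points with 95% counting intervals) and after matching of cell cycle scores (orange diamonds); dotted lines are ratios of 1.5 and 1/1.5. In G1 the diamonds of EXO1 (0.21), BLM (-0.18), RAD54L (0.09) and FANCI (0.08) lie far below their points while RBBP8 lies near 1 in both, and in S and G2M most points lie within the dotted lines.

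RBBP8, also called CtIP, starts the cutting back of broken ends together with the MRE11, RAD50 and NBN complex, and it was the member with the clearest difference (ENSG00000101773, GRCh37 chr18:20378224-20606451, plus strand). Its level in G1 of sensitive cells was 33.4 CPM (32.2 to 34.7) in monoculture and 76.2 CPM (73.5 to 79.1) in coculture, and in G1 of resistant cells it was 23.3 CPM (22.3 to 24.3) in coculture and 23.1 CPM (22.3 to 23.9) in monoculture. In the same order, in S the levels were 45.7, 89.2, 42.1 and 41.4 CPM, and in G2M they were 41.6, 70.6, 35.1 and 33.4 CPM. Sensitive cells of the coculture were therefore highest in each phase, and the other 3 populations lay much closer together. The ratio of coculture over monoculture in sensitive cells was 2.28 (2.16 to 2.41) in G1, 1.95 (1.73 to 2.22) in S and 1.70 (1.49 to 1.94) in G2M. In resistant cells it was 1.01 (0.952 to 1.06), 1.02 (0.963 to 1.07) and 1.05 (0.986 to 1.12). Over 10 processing settings within phase the log2 ratio in sensitive cells stayed between 1.08 and 1.28 in G1, 0.85 and 1.07 in S and 0.65 and 0.90 in G2M. With 1 coculture library, coculture and library cannot be told apart. For the genes of the complex it works with, the ratios in G1 of sensitive cells were 0.815 for RAD50 (0.788 to 0.844), 0.724 for NBN and 0.872 for MRE11, whose interval (0.749 to 1.01) holds 1, and none of these was past the fold.

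**Figure D5:**
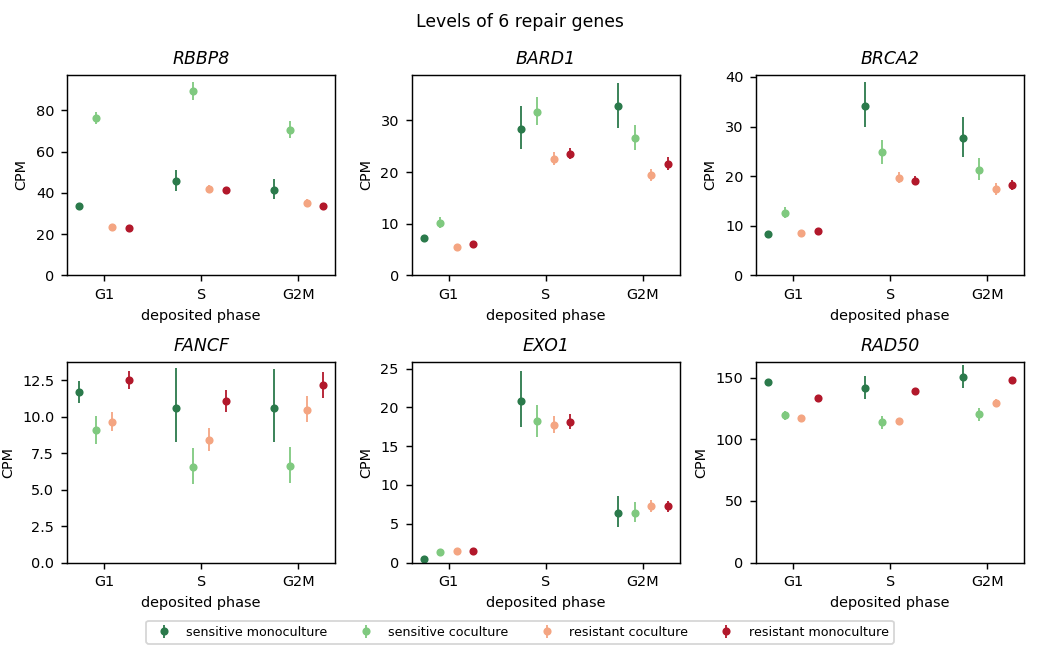
CPM of 6 repair genes by deposited phase, with 1 point per population and exact 95% Poisson intervals. RBBP8 is highest in sensitive coculture cells in each phase, BRCA2 is highest in sensitive monoculture cells in S and G2M, EXO1 is near 0 in G1 everywhere, and RAD50 is at a similar level in all phases.

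Between the monocultures, resistant cells had more RNA of many members in G1 and about the same in S and G2M. In G1, 9 of all 36 members were past 1.5 higher in resistant cells, where 9.45% of all genes were, and 0 were past it lower, where 18.5% of all genes were. The median log2 ratio was 0.26, against -0.13 over all genes, and outside the S list 7 of 32 were past it with a median of 0.22. The 9 were EXO1, BLM, FANCE, RAD54L, FANCB, XRCC2, FANCA, XRCC3 and FANCI in order of ratio. The sensitive monoculture cells of this comparison are the same as in the one before. FANCE, which links the Fanconi core to FANCD2, had 1.06 CPM in sensitive and 2.37 CPM in resistant cells, a ratio of 2.23 (1.75 to 2.86). FANCA, another subunit of the core, had 3.63 and 6.07 CPM, a ratio of 1.67 (1.46 to 1.92). XRCC2 had 3.98 and 6.79 CPM, a ratio of 1.71 (1.5 to 1.94). The lowest in G1 were RBBP8 (0.691, 0.656 to 0.728), FANCL (0.696, 0.637 to 0.761) and RAD52 (0.787, 0.575 to 1.08).

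After matching on cycle scores, the median in G1 was 0.01 (-0.09 over all genes). FANCE alone was past 1.5 higher, where 8.98% of all genes were, and BRCA2, RBBP8 and FANCL were past it lower, where 15.3% of all genes were. Without matching, in S 0 members were past 1.5 higher (8.25% of all genes), and BRCA2 was past it lower (13.2% of all genes). BRCA2 had 34.2 CPM in sensitive and 19.1 CPM in resistant cells in S, a ratio of 0.558 (0.485 to 0.644), and 27.7 and 18.2 CPM in G2M, a ratio of 0.658 (0.564 to 0.771). The lowest in S after BRCA2 were FANCC (-0.58) and RAD52 (-0.54) and the highest were XRCC3 (0.46), RAD51B (0.46) and ATR (0.32), as log2 ratios. In G2M, XRCC3, ATM and RAD51B were past 1.5 higher (8.65% of all genes), and BRCA2 and BARD1 lower (12.3% of all genes). The G2M ratios of XRCC3, ATM and RAD51B rest on 14, 44 and 15 UMIs in sensitive cells, and the interval for RAD51B runs from 0.929 to 2.85. With matched scores, 0 members were past it higher in S (8.93% of all genes) and BRCA2 (-0.74) lower (14.2%), and in G2M ATM (0.64) and SLX4 (0.64) were higher (9.41%) and BARD1 (-0.59) lower (13.7%), while XRCC3 (0.50), RAD51B (0.49) and BRCA2 (-0.55) were no longer past it. BARD1, the partner of BRCA1, had 32.7 and 21.6 CPM, a ratio of 0.661 (0.573 to 0.764), and FANCL followed with 0.717 (0.587 to 0.883). For BARD1 and FANCL the interval lay below 1 in all 3 phases, as it did for 20.1% of all genes.

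Within the coculture library, sensitive and resistant cells shared the culture and the library. In G1, BARD1 and RBBP8 were the 2 members past 1.5 lower in resistant cells (7.35% of all genes), and 0 were higher (5.38%). RBBP8 had a ratio of 0.305 (0.288 to 0.323), and BARD1 had 10.2 CPM in sensitive and 5.42 CPM in resistant cells, a ratio of 0.532 (0.464 to 0.609). BRCA2 was the next lowest with 12.6 and 8.46 CPM, a ratio of 0.671 (0.597 to 0.754), but its log2 ratio ran from -0.72 to 0.53 over 10 processing settings, the latter under the stricter phase call. At the upper end were FANCG, a core subunit, with a log2 ratio of 0.39, BRCA1 with 0.31 and SLX4 with 0.30. The median over members was 0.07, against -0.0015 over all genes.

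In S of the coculture, RBBP8 and RAD52, a protein that anneals single strands, were past 1.5 lower in resistant cells (6.47% of all genes) and 0 were higher (4.99%). RAD52 rests on 23 and 38 UMIs. BARD1 came next at -0.49 on the log2 scale, and PALB2 (0.57), SLX4 (0.46) and FANCE (0.38) were highest. With matched scores RBBP8 and RAD52 were again past 1.5 lower in S (6.69% of all genes) and PALB2 (0.59) was past it higher (5% of all genes). In G1 and G2M matching gave the same members as no matching, and the share of all genes is given there without matching only. In G2M without matching, RBBP8 was past it lower (5.43% of all genes) and FANCF higher (5.84%), with 6.61 CPM in sensitive and 10.5 CPM in resistant cells, a ratio of 1.59 (1.29 to 1.96). NBN (0.54) and MRE11 (0.48) followed FANCF, and BARD1 (-0.46) and FANCC (-0.37) followed RBBP8. In all 3 phases the intervals lay below 1 for BARD1, BRCA2, RAD51C and RBBP8, 4 of 36 members, where they did for 15.6% of all genes. They lay above 1 for MRE11, NBN and FANCG, where they did for 14.2% of all genes.

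In resistant cells, the summed members were lower in coculture than in monoculture in each phase, while no single member passed the fold. In G1 they stood at 448 CPM (444 to 453) in coculture and 498 CPM (495 to 502) in monoculture. In S they stood at 781 CPM (773 to 788) and 862 CPM (856 to 869), and in G2M at 749 CPM (742 to 757) and 834 CPM (826 to 841). In G1, S and G2M 0 members were past 1.5 higher, where 3.55%, 3.3% and 2.53% of all genes were, and 0 were past it lower, where 0.593%, 0.907% and 1.03% of all genes were. The median log2 ratios were -0.06, -0.05 and -0.07, against 0.05, 0.02 and 0.01 over all genes, and the full range in G1 ran from -0.47 for RAD51D, one of the strand invasion paralogs, to 0.18 for RAD54B, a relative of RAD54L. The 3 lowest in G1 were RAD51D, FANCF (-0.37) and NBN (-0.32), in S FANCF (-0.40), RAD51C (-0.31) and UBE2T (-0.30), and in G2M FANCG (-0.37), UBE2T (-0.36) and RAD51C (-0.33). The 3 highest were RAD54B, RAD54L (0.18) and XRCC3 (0.17) in G1, ATR (0.22), FANCC (0.17) and RAD54B (0.15) in S, and RAD54B (0.32), BRIP1 (0.17) and XRCC2 (0.15) in G2M.

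Levels of a few members in coculture and monoculture are given side by side for both lineages, comparisons that share the coculture library. In sensitive cells RAD50, NBN and FANCF had intervals below 1 in all 3 phases, where 13.8% of all genes did, and RBBP8 had them above 1, where 7% of all genes did. In resistant cells 7 members had intervals below 1 in all 3 phases, where 17.5% of all genes did, namely RAD50, NBN, FANCF, UBE2T, RAD51C, FANCA and FANCG. These shares of members are near or below those of all genes. For RAD50 the ratios were 0.815, 0.803 and 0.798 in sensitive cells and 0.878 (0.857 to 0.9), 0.824 (0.799 to 0.850) and 0.879 (0.851 to 0.907) in resistant cells, in G1, S and G2M. For NBN they were 0.724, 0.720 and 0.728 in sensitive cells and 0.801, 0.836 and 0.865 in resistant cells, and for FANCF 0.774, 0.620 and 0.625 and then 0.774, 0.760 and 0.860.

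Other genes of the same pathways were set beside the members. Of a list of 41 further recombination and Fanconi genes, 40 had enough UMIs in G1 of sensitive cells, where 3 were past 1.5 higher in coculture and 0 lower (6.66% and 8.42% of all genes), with a median log2 ratio of -0.0012. The 3 were MND1, a cofactor of strand exchange, with 1.64 CPM in monoculture and 3.74 CPM in coculture, ATRIP, the partner of ATR, with 4.17 and 7.05 CPM, and DNA2, a resection nuclease, with 1.81 and 2.85 CPM. The lowest were BABAM2 (0.820), HELQ (0.832) and FAAP100 (0.843). Of 16 genes of DNA end joining, the other way to close a break, 15 had enough UMIs and 0 were past 1.5 in either direction, with a median of -0.02. POLL (1.25), MAD2L2 (1.22) and DCLRE1C (1.17) were highest and SHLD1 (0.752), SHLD2 (0.825) and PAXX (0.842) lowest. In S over G1, 2 of 14 end joining genes with enough UMIs passed 1.5 in each of the 4 populations, with median log2 ratios of 0.27, 0.20, 0.11 and 0.12, and 20, 18, 19 and 18 of the 40 or 41 further recombination and Fanconi genes did, with medians of 0.64, 0.43, 0.42 and 0.53. Of all genes 8.96%, 7.23%, 6.49% and 6.82% did. Unlike the members, these lists were not cleared of genes of the S gene list. The difference between phases of any such gene is a part of the phase call and no finding.

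Some members share their place in the genome with other genes. In GENCODE 44 lifted to GRCh37, RAD54B overlaps FSBP and CHEK1 overlaps STT3A on the same strand, so the authors' counting could split or drop their reads. Members that overlap a gene of the opposite strand include RAD50, NBN, BRCA2, FANCF, FANCI and FANCD2.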

How the data were processed

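The data were 3 droplet single-cell RNA libraries, 1 per condition. Per the labels and the study's methods the authors mapped reads with Cell Ranger 3.0.2 to GRCh37 and deposited raw UMI counts per gene and barcode, together with a table of kept cells that holds lineage, phase, an S score, a G2M score and a mitochondrial percent for each cell. The authors' deposited scores and percent values were used as given, and 11 columns of that table were not used. Rows without a gene symbol held 0.523 to 0.591% of UMIs and were left out. Doublets were not called anew.

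Counts were summed over the cells of a population and phase and divided by the summed UMIs (Python 3.11.15, NumPy 2.4.6, SciPy 1.17.1, pandas 2.3.3, Matplotlib 3.10.9). Levels carry exact Poisson and ratios exact conditional binomial 95% intervals, which cover counting error only. A check on simulated data drew counts from the Poisson model that the intervals assume, so it does not cover spread between cells. Cells are not replicates, so no p-value was computed and the authors' per-cell test was not repeated. A ratio past 1.5 with at least 50 UMIs was used as a fold. All 36 members are named by role, and in each comparison between populations within a phase those past 1.5 and the 3 highest and lowest. Other comparisons are given by counts and examples. Members and lists were chosen with earlier results of these data known. An item of the same pathways is not reported here, and the companion list does not hold it.

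The alternatives tried were TMM scaling (edgeR 4.0.16, R 4.3.3), mean CPM per cell, a pseudocount of 1 CPM, a minimum of 200 UMIs, no minimum, removal of 10% of resistant coculture RNA from the cocultured sensitive profile as free RNA, phases called anew without members, phases with a score over 0.1, cells with at least 2 UMIs of their own transgene, all phases together, matched cycle scores and other phase weights. Promoter sequences came from RefSeq (GRCh38.p14) by symbol.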

Additional observations from a re-analysis of the deposited data

How the results depend on the processing

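No paired analysis was possible because each group has 1 sample. Some choices moved results, single members by more than their counting interval. A median over members has no counting interval of its own. With a stricter phase call (a score over 0.1, which left 184 G1 cells of sensitive coculture), the median log2 ratio of the members in G1 of sensitive cells, coculture over monoculture, was -0.16, that of BRCA2 -0.34 and that of FANCB -0.46. The S over G1 medians were then 1.61, 1.17 and 1.19 in sensitive coculture, resistant coculture and resistant monoculture, and the G2M over G1 medians 1.23, 0.98 and 1.01, against 1.37 and 0.88 in sensitive monoculture, so its S over G1 median was no longer the highest. With all phases together the median was 0.54 in sensitive cells and 0.48 between monocultures, RAD51AP1 was at 0.83 in the former, and BRCA2 at 0.29 and BARD1 at 0.50 in the latter. With matched cycle scores, a choice made after seeing the data, the G1 medians were -0.064 in sensitive cells and 0.0072 between monocultures. In G1 of sensitive cells BRCA2 was at -0.32, XRCC2 at -0.17, BLM at -0.18 and FANCB at -0.080, and between monocultures FANCI was at -0.0057. TMM scaling shifted every log2 ratio between monocultures by 0.11 to 0.14, which put the median at equal phase shares at 0.18. Under the weights of cocultured sensitive cells, also chosen after seeing the data, 0 of 4 medians were counted as moved. Causes were not tested. Depth limits the S and G2M values of sensitive monoculture, where RAD52 had under 10 UMIs in each.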
